A study of Homo sapiens with 12 samples.

Results

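MGMT and 5 other genes that repair or tolerate alkylated, deaminated and mismatched bases were followed: UNG, APEX1, PARP1, PMS2 and RAD18. They were taken by gene symbol from the deposited value table, in which each of the 6 had 1 probe set, out of 14599 genes with a named row. RNA of Hs695T, an established line of human melanoma cells, was hybridised to 12 single-colour Affymetrix arrays after 24 h of treatment. Dabrafenib, a BRAF inhibitor, at 100 nM together with trametinib, a MEK inhibitor, at 10 nM (DT) was given to the cells of 3 arrays. Entinostat at 1 µM (E), which blocks class I histone deacetylases, was given to 3 others, all 3 agents (DTE) to 3 more, and the vehicle (DMSO) alone to the remaining 3. All groups come from this 1 line. The 3 arrays of a group are biological replicates by their titles and technical triplicates by the series design, so p-values measure the spread between these arrays, which may be technical.

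Base damage is handled by separate routes that these genes stand for. MGMT takes an alkyl group from the O6 position of guanine onto a cysteine of its own and is used up by doing so, which makes its level matter for alkylating drugs such as temozolomide and dacarbazine. In base excision repair, UNG cuts uracil from DNA, APEX1 nicks the abasic site that is left, and PARP1 senses the strand break and recruits repair proteins by building poly(ADP-ribose). PMS2 carries the nuclease activity of mismatch repair, which also acts at mispairs of O6-methylguanine that MGMT has not removed. RAD18, with its partner RAD6 (encoded by UBE2A and UBE2B), attaches ubiquitin to PCNA at stalled forks so that translesion polymerases can copy past a damaged base.

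Upstream DNA is shown for MGMT, which had the smallest fall of the 6 with DT, and for UNG and RAD18, which had the largest, so that their promoters can be compared. All 6 genes had a promoter entry in RefSeq (GRCh38.p14), and the 250 bases before each annotated start were read, as 8 windows because UNG and PMS2 have 2 starts each. The 2 windows of PMS2 share most of their bases, so counts are given by gene. The capitals mark GGGCGG, the box bound by SP1, on either strand. The windows are MGMT at chr10:129466991-129467240 on the plus strand, UNG at chr12:109097347-109097596 on the plus strand (the first of its starts), and RAD18 at chr3:8963473-8963722 on the minus strand, each 5′ to 3′.
MGMT: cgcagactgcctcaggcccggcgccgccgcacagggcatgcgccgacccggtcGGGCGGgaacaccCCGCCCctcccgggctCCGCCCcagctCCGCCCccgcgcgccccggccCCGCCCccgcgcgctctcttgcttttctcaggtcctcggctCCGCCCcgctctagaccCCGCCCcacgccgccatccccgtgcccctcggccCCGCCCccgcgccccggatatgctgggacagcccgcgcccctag
UNG: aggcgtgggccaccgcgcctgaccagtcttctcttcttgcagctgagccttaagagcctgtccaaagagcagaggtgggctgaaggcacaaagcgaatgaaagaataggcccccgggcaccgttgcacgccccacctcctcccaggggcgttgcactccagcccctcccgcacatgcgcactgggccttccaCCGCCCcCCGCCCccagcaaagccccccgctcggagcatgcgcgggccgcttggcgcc
RAD18: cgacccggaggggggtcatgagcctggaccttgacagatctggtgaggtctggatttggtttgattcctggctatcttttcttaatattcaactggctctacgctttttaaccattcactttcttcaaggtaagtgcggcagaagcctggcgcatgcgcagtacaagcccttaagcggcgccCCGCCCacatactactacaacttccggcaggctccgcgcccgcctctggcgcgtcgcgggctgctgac
MGMT has the most CpG-rich of the 8 windows, with 36 CpG dinucleotides and 8 SP1 boxes, where the median over all 35116 windows was 11 CpG. The UNG window shown holds 18 CpG and 2 boxes, and that of RAD18 holds 17 CpG and 1 box. The other UNG window, not shown, holds 24 CpG, 3 boxes and 3 CCAAT matches. An SP1 box was present before 5 of the 6 genes (7 of the 8 windows) and in 42.6% of all windows of this length. CCAAT was found before 3 of the 6 (4 of the 8 windows) and in 32% of all. A gene with 2 windows can match in either, so counts by gene and shares of windows are not the same measure. TATAAA was found before 0 of the 6 and in 10.7% of all. The letters TTTGGCGC, TTTCGCGC, TTTCCCGC and TTTGGCGG, forms of the E2F motif, were found before 0 of the 6 and in 2.83% of all windows. The related form TTTGCCGC was not in that search. It occurs in the other UNG window and in both PMS2 windows, and its share over all windows was not counted. All motifs were searched on both strands with overlaps counted, and a match or its absence describes only these letters.

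The arrays differed in overall signal, and each value below has to be read against that. Median intensity per array was 37.5 to 40.8 with DT, 48.3 to 51.6 with E and 33.3 to 39.9 with DTE, against 50.6 to 57.6 with DMSO. The median log2 difference over all genes was -0.48 for DT, -0.20 for E and -0.72 for DTE against DMSO. How the arrays were scaled is not stated, so differences are given on the deposited log2 scale and, after "quantile", once the same values had been quantile normalized, which left medians of -0.04 for E and DTE and one nearer to 0 for DT. A gene is said to have fallen or risen where limma's adjusted p over all 14599 genes was under 0.05 on the deposited scale, and errors beside differences are limma standard errors. The MAPK target DUSP6 averaged a log2 intensity of 4.40 ± 0.22 with DT, 8.33 ± 0.19 with E and 4.47 ± 0.42 with DTE, against 8.93 ± 0.02 with DMSO (SD, n = 3 each). Of 7 measured melanocyte markers, S100B (11.49) and SOX10 (9.96) were bright in DMSO arrays. PMEL (6.07) and MITF (6.09) were nearer to the array medians of 5.66 to 5.85, and the pigment genes MLANA (4.27), TYR (3.81) and TYRP1 (3.48) were below them. The fibroblast markers LUM (2.82) and DCN (2.71), 2 measured of 5 listed, were also below. So was the monocyte marker CD14 (4.53), the 1 measured of 4 listed leukocyte markers. Among epithelial markers KRT18 (7.38) was above the array medians, and EPCAM (5.58) and KRT19 (5.14) were below. The summed intensity of the 7 melanocyte markers was 1714 to 2032 with DT, 2497 to 2746 with E and 1487 to 1536 with DTE, against 3785 to 4210 with DMSO. S100B was the brightest of the 7 in every group and weighs most in the sum. PMEL averaged higher with E (7.14) and MITF with DT (6.21) than with DMSO. The remaining averages were below DMSO. The summed intensity of the 3 measured epithelial markers of 4 listed (KRT18, KRT19 and EPCAM) was 100.5 to 107 with DT, 281 to 320 with E and 148 to 178 with DTE, against 243 to 265 with DMSO. The part of these markers in the results was not tested.

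All 6 genes were lower after every treatment than with DMSO. With DT 6 of 6 fell, where 66.2% of all genes fell (quantile 3 of 6, where 14.7% of all genes were lower, and 5 of 6 with array medians subtracted, where 29.2% were). Subtracting array medians left bright genes lower than dim ones. Over 10 equal bins of genes by mean level, the DT median was then 0.43 in the dimmest and -0.30 in the brightest. With E 6 of 6 fell, where 37.2% of all genes fell (quantile 6 of 6, against 21.4% of all genes). With DTE 6 of 6 fell, where 74.3% of all genes fell (quantile 6 of 6, against 25.6%). By limma 0 of 6 rose in any of these, also at an unadjusted p under 0.05, where 2.97%, 10.4% and 4.38% of all genes rose (quantile 14.2%, 18.2% and 21.0%). Arrays of all 6 genes lay wholly below those with DMSO in each comparison, as did 67.8% of all genes for DT, 43.2% for E and 72.4% for DTE. The median over the 6 genes was -1.06 with DT, -1.26 with E and -2.35 with DTE (quantile -0.27, -0.90 and -1.10). The comparisons with DMSO share the same 3 DMSO arrays.

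**Figure D1:**
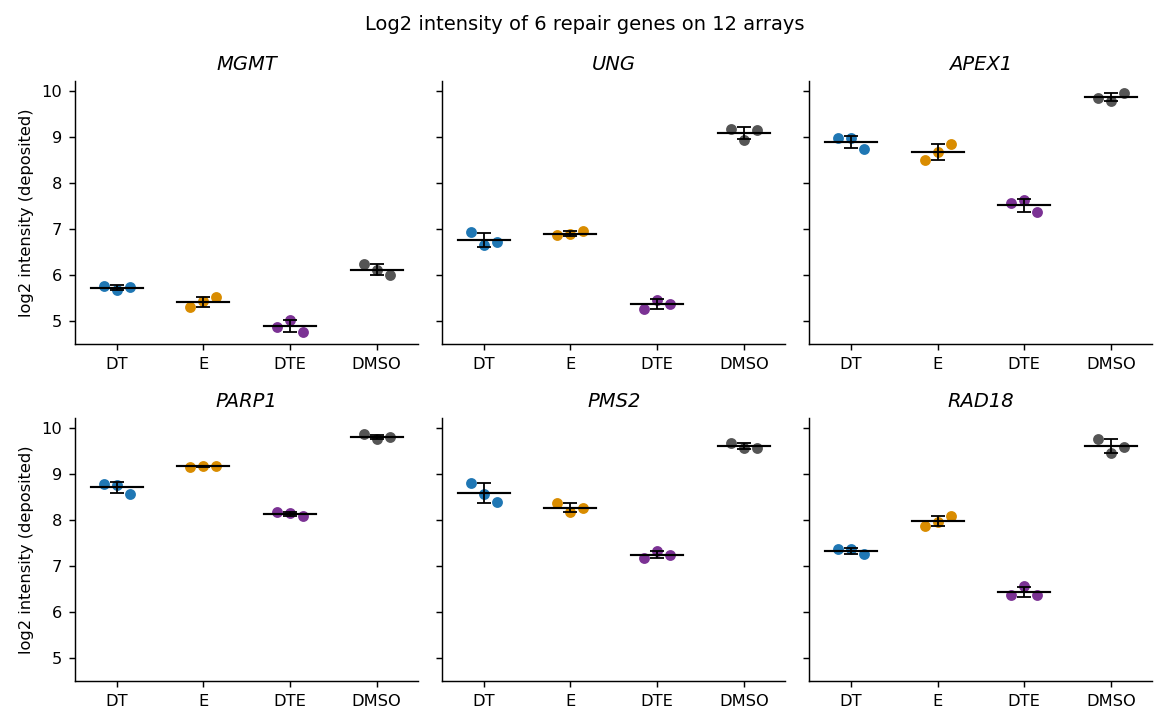
Log2 intensity as deposited (vertical axis) of the 6 genes on the 12 arrays, with points for arrays, long bars for means and error bars for the SD of 3 arrays. In every panel the DTE arrays are lowest and the DMSO arrays highest; MGMT is the dimmest of the 6 and UNG spans the widest range.

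MGMT (chr10:129467241-129770983, GRCh38.p14) was the dimmest of the 6 and had the smallest fall with DT. Its log2 intensity was 5.75, 5.66 and 5.75 with DT, 5.29, 5.43 and 5.51 with E and 4.87, 5.02 and 4.76 with DTE, against 6.23, 6.10 and 6.0 with DMSO. The 4 groups did not overlap, in the order DMSO, DT, E and DTE. It fell 1.31-fold with DT (-0.39 ± 0.11, adjusted p = 0.0044), where the median of genes of like brightness (the same 1 of 10 equal bins by mean level) was -0.44. After quantile normalization that difference was 0.10 ± 0.08 (95% interval -0.07 to 0.26, limma adjusted p = 0.40), of opposite sign and overlapping DMSO. With E it fell 1.62-fold (-0.70 ± 0.11, quantile -0.54 ± 0.08, both passing), against -0.15 for its bin. With DTE it fell 2.34-fold (-1.23 ± 0.11, quantile -0.65 ± 0.08), against -0.58 for its bin. MGMT lay below its DMSO arrays on both scales where entinostat was given.

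UNG (chr12:109097597-109110992), the uracil glycosylase, had the largest falls of the 6 with each treatment. Its log2 intensity was 6.94, 6.65 and 6.71 with DT, 6.86, 6.89 and 6.96 with E and 5.26, 5.46 and 5.38 with DTE, against 9.17, 8.93 and 9.14 with DMSO. The DT and E arrays overlapped each other, far below DMSO, and the DTE arrays lay below both. It fell 4.98-fold with DT (-2.32 ± 0.11, quantile -1.52 ± 0.09) and 4.53-fold with E (-2.18 ± 0.11, quantile -1.74 ± 0.09). With DTE the fall was 13.1-fold (-3.71 ± 0.11, adjusted p = 9.8e-13, quantile -2.76 ± 0.09). Genes of its brightness bin had medians of -0.67, -0.42 and -1.14 in these comparisons. In DTE arrays UNG was close to the array medians, which were 5.06 to 5.32 on the log2 scale.

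APEX1 (chr14:20455226-20457767), the main abasic site nuclease and also a redox regulator of transcription factors, fell with each treatment, most with DTE. Its log2 intensity was 8.97, 8.97 and 8.74 with DT, 8.49, 8.67 and 8.84 with E and 7.55, 7.62 and 7.36 with DTE, against 9.85, 9.78 and 9.95 with DMSO. The DT and E arrays overlapped and the DTE arrays lay below both. It fell by 0.97 ± 0.12 with DT, but the quantile difference of -0.19 ± 0.09 did not pass (adjusted p = 0.14). With E it fell 2.29-fold (-1.19 ± 0.12, quantile -0.85 ± 0.09) and with DTE 5.09-fold (-2.35 ± 0.12, quantile -1.10 ± 0.09). The medians of its bin, the brightest, were -0.74 with DT, -0.37 with E and -1.19 with DTE.

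PARP1 (chr1:226360691-226408093), the break sensor that PARP inhibitors trap, had the smallest quantile differences of the 6 with E and with DTE. Its log2 intensity was 8.78, 8.75 and 8.57 with DT, 9.14, 9.17 and 9.17 with E and 8.16, 8.14 and 8.07 with DTE, against 9.85, 9.75 and 9.80 with DMSO. Here the E arrays lay above the DT arrays without overlap, the reverse of MGMT and PMS2. It fell 2.14-fold with DT (-1.10 ± 0.10, quantile -0.33 ± 0.06), 1.56-fold with E (-0.64 ± 0.10, quantile -0.30 ± 0.06) and 3.20-fold with DTE (-1.68 ± 0.10, quantile -0.44 ± 0.06). PARP1 is in the same brightness bin as APEX1, and all 3 quantile differences passed.

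PMS2 (chr7:5970925-6009106), the nuclease subunit of mismatch repair, had falls close in size to those of APEX1. Its log2 intensity was 8.80, 8.56 and 8.38 with DT, 8.36, 8.17 and 8.25 with E and 7.17, 7.32 and 7.23 with DTE, against 9.67, 9.55 and 9.56 with DMSO. The 3 DT arrays were more scattered than any other group of the 6 genes (SD 0.21) and lay just above those with E. It fell by 1.01 ± 0.11 with DT, without passing on the quantile scale (-0.21 ± 0.09, adjusted p = 0.099). With E it fell 2.52-fold (-1.33 ± 0.11, quantile -0.96 ± 0.09) and with DTE 5.11-fold (-2.35 ± 0.11, quantile -1.09 ± 0.09). PMS2 has near-identical pseudogene copies, and whether its probe set also detects their RNA was not tested.

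RAD18 (chr3:8877075-8963472), the PCNA ubiquitin ligase, had the largest falls after UNG with DT, E and DTE. Its log2 intensity was 7.35, 7.36 and 7.25 with DT, 7.86, 7.95 and 8.09 with E and 6.37, 6.56 and 6.37 with DTE, against 9.75, 9.45 and 9.58 with DMSO. No 2 of the 4 groups overlapped, and the DT arrays lay below the E arrays. It fell 4.84-fold with DT (-2.27 ± 0.11, quantile -1.49 ± 0.07), 3.09-fold with E (-1.63 ± 0.11, quantile -1.24 ± 0.07) and 8.95-fold with DTE (-3.16 ± 0.11, quantile -1.99 ± 0.07). Its brightness bin had medians of -0.78, -0.45 and -1.32.

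**Figure D2:**
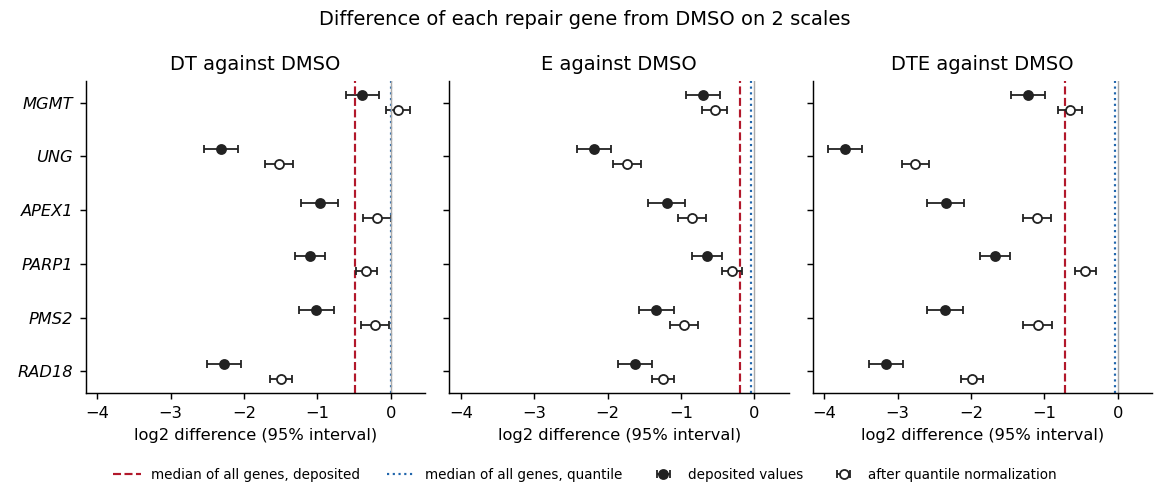
Log2 differences of the 6 genes from DMSO (horizontal axis, points with 95% limma intervals) for DT, E and DTE, filled for deposited and open for quantile normalized values; dashed and dotted lines are the medians of all genes on the 2 scales. UNG and RAD18 lie far left of both lines in every panel, while MGMT with DT lies right of the dashed line.

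A gene's rank among all 29592 probe sets of its own array does not change under any scaling that keeps the order of values. The rank of MGMT was the 56.4 to 59.5 percentile with DT, 44.2 to 48.0 with E and 43.2 to 44.2 with DTE, against 54.9 to 57.2 with DMSO, so its DT arrays overlapped DMSO and its entinostat arrays did not. UNG ranked at 72.8 to 76.5 with DT, 70.8 to 72.7 with E and 53.1 to 56.9 with DTE, against 91.3 to 92.1 with DMSO. RAD18 ranked at 82.1 to 82.9 with DT, 84.7 to 86.4 with E and 75.5 to 76.6 with DTE, against 94.7 to 95.2 with DMSO. Both dropped past many other probe sets with either treatment. APEX1 ranked at 95.2 to 95.5 with DT, 90.6 to 92.6 with E and 88.6 to 90.1 with DTE, against 95.8 to 96.6 with DMSO. PMS2 ranked at 93.2 to 94.6 with DT, 86.9 to 89.4 with E and 86.3 to 87.3 with DTE, against 94.7 to 95.2 with DMSO. For these 2 genes the ranks with E and DTE were near each other, and those with DT near DMSO. PARP1 kept between 93.5 and 94.7 with the treatments, against 95.7 to 96.1 with DMSO. Ranks are given as a description, with no test.

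**Figure D3:**
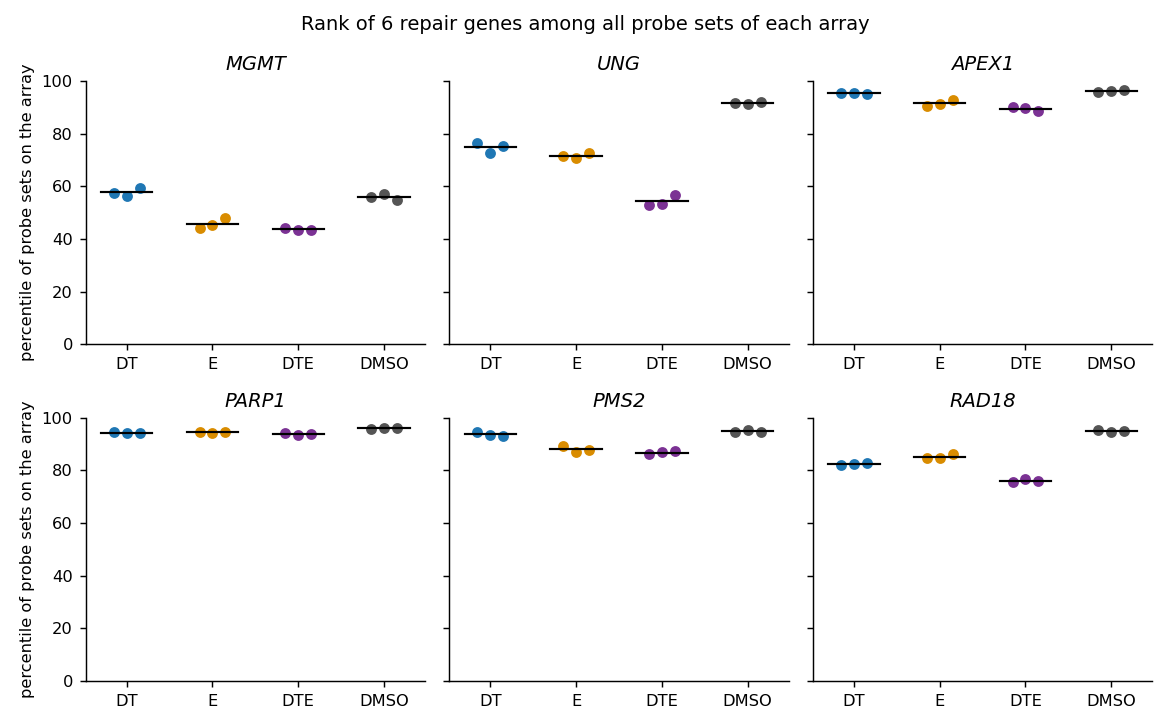
Percentile of each gene among all probe sets of the same array (vertical axis, 0 to 100), with points for arrays and bars for means of 3. UNG goes down to 53.1 to 56.9 with DTE, MGMT stands apart from DMSO only in the E and DTE arrays, and PARP1, APEX1 and PMS2 remain in the upper part of the scale.

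DT and E were then set against each other to see which single treatment left each gene lower. RAD18 (-0.64 ± 0.11, quantile -0.25 ± 0.07) was lower with DT than with E on both scales. PARP1 was lower with DT on the deposited scale (-0.46 ± 0.10) but not after quantile normalization (-0.03 ± 0.06, 95% interval -0.17 to 0.11). MGMT (0.31 ± 0.11, adjusted p = 0.027, quantile 0.64 ± 0.08) and PMS2 (0.32 ± 0.11, adjusted p = 0.029, quantile 0.74 ± 0.09) were higher with DT than with E. Both of these calls were lost on the deposited scale when single arrays were left out, MGMT without DT replicate 1 (adjusted p = 0.071), DT replicate 3 (0.065), E replicate 1 (0.11) or E replicate 2 (0.057), and PMS2 without DT replicate 1 (0.16), DT replicate 2 (0.058), E replicate 2 (0.11) or E replicate 3 (0.072). APEX1 did not pass on the deposited scale (0.22 ± 0.12, 95% interval -0.03 to 0.48, adjusted p = 0.13) and did after quantile normalization (0.66 ± 0.09). UNG did not pass on either scale (-0.13 ± 0.11, 95% interval -0.37 to 0.10, quantile 0.21 ± 0.09, adjusted p = 0.061). In all 2 of 6 were lower with DT, where 39.4% of all genes were (quantile 1 of 6, against 20.6%), and 2 of 6 were higher, where 7.25% were (quantile 3 of 6, against 24.2%).

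Adding entinostat to DT lowered all 6 genes further. DTE was lower than DT for 6 of 6, where 40.6% of all genes were lower (quantile 5 of 6, against 24.0%), and 0 of 6 were higher by limma, also at an unadjusted p under 0.05, where 8.68% were (quantile 19.6%). UNG (-1.40 ± 0.11, quantile -1.24 ± 0.09), APEX1 (-1.38 ± 0.12, quantile -0.91 ± 0.09) and PMS2 (-1.34 ± 0.11, quantile -0.88 ± 0.09) fell by similar amounts on the deposited scale. RAD18 fell by 0.89 ± 0.11 (quantile -0.50 ± 0.07) and MGMT by 0.84 ± 0.11 (quantile -0.75 ± 0.08). PARP1 fell by 0.58 ± 0.10, without passing after quantile normalization (-0.11 ± 0.06, 95% interval -0.25 to 0.03, adjusted p = 0.19).

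What DT added to entinostat depended on how the arrays were scaled. DTE was lower than E for 6 of 6 on the deposited scale, where 72.6% of all genes were lower, for 5 of 6 with array medians subtracted, where 30.3% were, and for 2 of 6 on the quantile scale, where 12.5% were. By limma 0 of 6 were higher, also at an unadjusted p under 0.05, where 0.644% of all genes were (quantile 10.5%). The 2 that passed on the quantile scale were UNG (-1.53 ± 0.11, quantile -1.02 ± 0.09) and RAD18 (-1.53 ± 0.11, quantile -0.75 ± 0.07). MGMT (-0.53 ± 0.11, quantile -0.11 ± 0.08), PMS2 (-1.02 ± 0.11, quantile -0.14 ± 0.09), PARP1 (-1.04 ± 0.10, quantile -0.14 ± 0.06) and APEX1 (-1.15 ± 0.12, quantile -0.25 ± 0.09) passed on the deposited scale and not on the quantile scale. With array medians subtracted PMS2 (-0.55), PARP1 (-0.57) and APEX1 (-0.68) passed and MGMT (-0.06) did not. On that scale the median of the brightness bin was -0.36 for PMS2, PARP1 and APEX1, and 0.03 for MGMT.

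The effect of entinostat on UNG and RAD18 differed with the presence of DT. The interaction, which is DTE minus DT less the difference of E minus DMSO, was 0.78 ± 0.16 for UNG (adjusted p = 0.0042, quantile 0.50 ± 0.12) and 0.74 ± 0.15 for RAD18 (adjusted p = 0.0061, quantile 0.74 ± 0.10). Entinostat changed UNG by -1.40 with DT and by -2.18 without it, and RAD18 by -0.89 with DT and by -1.63 without it, so each combined fall was smaller than the sum of the single ones on the log2 scale. The other 4 did not pass, at -0.14 ± 0.15 for MGMT (95% interval -0.46 to 0.18), -0.19 ± 0.17 for APEX1 (-0.54 to 0.17), 0.06 ± 0.14 for PARP1 (-0.22 to 0.35) and -0.01 ± 0.16 for PMS2 (-0.35 to 0.33). Thus 2 of 6 passed with a positive interaction, where 3.16% of all genes did (quantile 2 of 6, against 6.17%), and 0 of 6 with a negative one, also at an unadjusted p under 0.05, where 4.84% did (quantile 6.36%). UNG's nearness to the array median with DTE stands beside this value, and its part in the result was not tested.

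**Figure D4:**
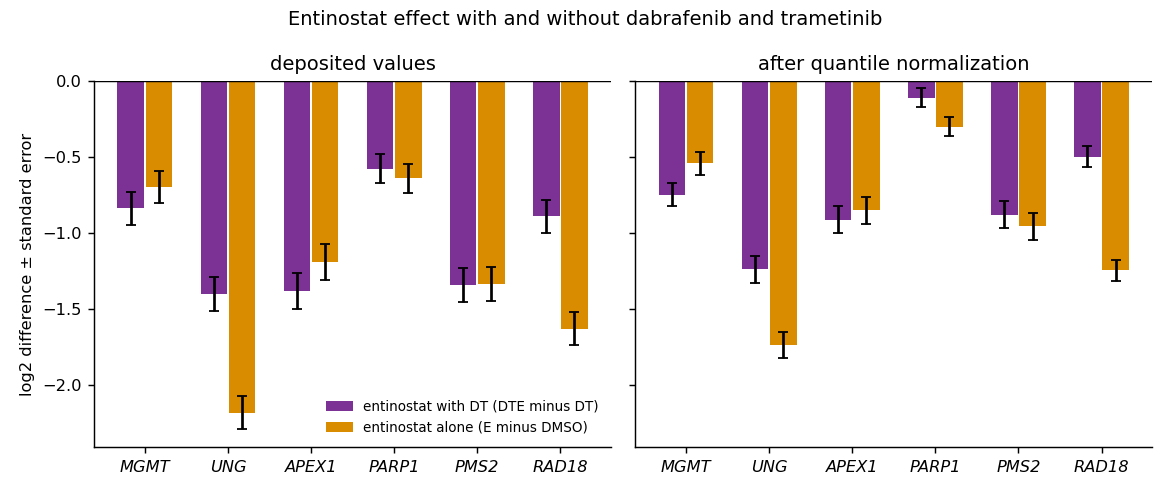
Log2 difference made by entinostat (vertical axis, bars with limma standard errors) in the presence of DT (left bar of each pair) and alone (right bar), on deposited and quantile normalized values. The pairs differ for UNG and RAD18, the 2 genes whose interaction passed on both scales.

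Replication genes, like UNG and RAD18, were lower than DMSO with each treatment. Of 12 listed S phase genes 11 were measured, and 11 fell with DT (median -2.38, quantile -1.59 with 11 lower), 11 with E (median -1.29, quantile -0.94 with 10 lower) and 11 with DTE (median -2.76, quantile -1.61 with 11 lower). MCM5, a subunit of the replicative helicase, fell with DT (-3.00 ± 0.12), E (-2.29 ± 0.12) and DTE (-3.92 ± 0.12; quantile -2.27, -1.94 and -2.84). For comparison, of all genes 66.2%, 37.2% and 74.3% were lower in these comparisons, and 14.7%, 21.4% and 25.6% on the quantile scale. The interaction passed with a positive value for 8 of the 11 on each scale (median 0.81 on both), where 3.16% of all genes did (quantile 6.17%). The part of replication in the falls of UNG and RAD18 was not tested. In bulk RNA, fewer cells that transcribe a gene and less RNA per cell cannot be told apart.

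Likeness to each gene was measured as the root-mean-square difference in log2 value over the 12 arrays, after each gene's own mean was subtracted, against all 14598 other genes on the deposited scale. RAD18 was most like MCM4, another helicase subunit (0.14), then SOCS6 (0.15) and SNRPB2 (0.15). UNG was most like the antisense RNA PRR7-AS1 (0.25), then RAD18 (0.28) and RHOJ (0.29). In likeness to RAD18, UNG ranked 28. On the quantile scale PRR7-AS1 remained nearest to UNG, and RAD18 ranked 7. APEX1 was nearest to FTSJ3, DCAF1 and MRPS35 (0.09 to 0.10), and PMS2 to DCTN6, SLC71A1 and RPRD1B (0.08 to 0.09), while APEX1 and PMS2 differed from each other by 0.15. PARP1 was nearest to ASF1A, WTAP and SRPRA (0.05 to 0.06). MGMT was nearest to NUDT2, SRP14 and FBXL20 (0.06 to 0.08). On the quantile scale NUDT2 remained nearest to MGMT, whereas SRP14 ranked 2512 and FBXL20 2858. The smallest distance of MGMT to any of the other 5 genes was 0.33, to PARP1, which ranked 5585.

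The rest of the pathway was read from 7 lists of 65 repair, tolerance and nucleotide pool genes, of which 48 were measured and 42 are not among the 6. Of these 42, with DT 37 fell and 1 rose (88.1% and 2.38%, median -0.86, quantile 18 lower and 5 higher, median -0.26). With E 31 fell and 4 rose (73.8% and 9.52%, median -0.60, quantile 21 lower and 7 higher, median -0.27). With DTE 40 fell and 1 rose (95.2% and 2.38%, median -1.29, quantile 24 lower and 4 higher, median -0.36). Medians over all genes were -0.48, -0.20 and -0.72. Shares of all genes that fell with DT, E and DTE were 66.2%, 37.2% and 74.3%, and shares that rose were 2.97%, 10.4% and 4.38%. On the quantile scale 14.7%, 21.4% and 25.6% of all genes were lower and 14.2%, 18.2% and 21.0% higher, and the counts of each list below are to be read against the same shares. The shares of the 42 genes that rose were near those of all genes with DT and E. The 4 that rose with E were SAMHD1, MLH3, APLF and HLTF, of which APLF (0.76, quantile 0.81) and HLTF (0.41, quantile 0.75) are named after their values were seen.

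Among the 11 DNA glycosylases, which each remove particular damaged bases, 10 fell with DT, 8 with E and 11 with DTE (quantile 4 lower and 1 higher, 6 and 2, 5 and 1), where 66.2%, 37.2% and 74.3% of all genes fell. UNG fell most in each. NEIL3, a glycosylase for oxidised bases and crosslinks, fell by 1.88 ± 0.12 with DT (quantile -1.09), had 0.13 ± 0.12 with E without passing (quantile 0.52, passing), and was higher with DTE than with DT by 1.14 ± 0.12 (quantile 1.63). NEIL1, its relative, had 0.26 ± 0.15 with DT without passing (quantile 0.86, passing) and fell by 0.93 ± 0.15 with E (quantile -0.68). MPG, the glycosylase for alkylated purines, fell with DT (-1.03 ± 0.11) and DTE (-1.58 ± 0.11) (quantile -0.30 and -0.48). TDG, which removes thymine and uracil from mispairs with guanine, fell with E (-0.64 ± 0.11) and DTE (-1.70 ± 0.11) (quantile -0.30, not passing, and -0.75). The mean log2 intensity of TDG with DT was also lower, at 6.46 against 7.46 with DMSO (quantile 6.62 and 6.92). That of MPG with E was 7.14, against 7.77 with DMSO (quantile 6.95 and 7.20).

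Of 12 genes for abasic site processing, gap filling and ligation 6 were measured, and 6 fell with each treatment (quantile 3 lower with DT, 5 with E and 6 with DTE). FEN1, the flap nuclease, fell with DT (-2.07 ± 0.17), E (-1.25 ± 0.17) and DTE (-2.54 ± 0.17) (quantile -1.30, -0.83 and -1.49). XRCC1, the scaffold of single-strand break repair, fell with E (-1.18 ± 0.11) and DTE (-2.00 ± 0.11) (quantile -0.85 and -0.77). With DT its mean log2 intensity was also lower, at 9.18 against 10.03 with DMSO (quantile 9.37 and 9.47). PCNA, the sliding clamp that RAD18 modifies, fell by 1.36 ± 0.10 with DT (quantile -0.62), and DTE against DT was 0.07 ± 0.10 without passing (quantile 0.43, passing). In poly(ADP-ribose) metabolism, of 8 measured genes 7 fell with DT, 6 with E and 7 with DTE (quantile 5, 5 and 6 lower), and 1, APLF, rose with E. With DTE APLF had 0.09 ± 0.14 without passing, and was higher on the quantile scale (0.69, passing). PARP2, the relative of PARP1, fell with DT (-1.17 ± 0.10), E (-1.09 ± 0.10) and DTE (-2.02 ± 0.10) (quantile -0.43, -0.70 and -1.02). PARG, which degrades the polymer, was lower with DTE than with DT by 1.08 ± 0.16 (quantile -0.75).

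In mismatch repair 5 of 8 listed genes were measured. With DT 5 fell, with E 3 fell and 1 rose, and with DTE 5 fell (quantile 1 lower and 1 higher, 1 and 1, 2 and 0). EXO1, the exonuclease of this pathway, fell with DT (-3.06 ± 0.11), E (-0.60 ± 0.11) and DTE (-2.72 ± 0.11) (quantile -2.27, -0.19 and -1.61), the E difference not passing on that scale. MLH3, a relative of PMS2, rose by 0.48 ± 0.12 with E (quantile 0.67). Around RAD18, in PCNA ubiquitination and translesion synthesis, of 10 measured genes 8 fell with DT, 7 fell and 1 rose with E, and 10 fell with DTE (quantile 4 lower and 2 higher, 4 and 2, 4 and 1). WDR48 and USP1, which together remove the ubiquitin that RAD18 adds, fell with DT (WDR48 -1.17 ± 0.10, USP1 -1.15 ± 0.12) and with DTE (WDR48 -1.92 ± 0.10, USP1 -1.72 ± 0.12). Their quantile differences were smaller, at -0.37 and -0.34 with DT and -0.65 and -0.45 with DTE, and passed. WDR48 also fell with E (-0.66 ± 0.10, quantile -0.29, passing). USP1 averaged a log2 intensity of 8.79 with E, against 9.43 with DMSO (quantile 8.56 and 8.82). POLI, a translesion polymerase, had 0.12 ± 0.12 with DT without passing (quantile 0.93, passing), and was lower with DTE than with DT by 1.16 ± 0.12 (quantile -0.68). UBE2B, which encodes a RAD6 partner of RAD18, had 0.07 ± 0.12 with E without passing (quantile 0.33, passing).

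The nucleotide pool genes, all 7 measured, include those that keep dUTP low and so keep uracil, the substrate of UNG, out of new DNA. With DT 6 fell and 1 rose, and the same counts held with E and with DTE (quantile 4 lower and 1 higher, 5 and 1, 6 and 1). TYMS, the thymidylate synthase, fell with DT (-1.84 ± 0.11), E (-1.48 ± 0.11) and DTE (-2.36 ± 0.11) (quantile -1.10, -1.17 and -1.15), and the dUTPase gene DUT was lower with DTE than with DT by 0.80 ± 0.12 (quantile -0.73). SAMHD1, a dNTP hydrolase, rose by 2.13 ± 0.10 with E (quantile 2.39). It was also the 1 of the 42 genes that rose with DT (0.47 ± 0.10, quantile 1.15) and with DTE (1.19 ± 0.10, quantile 2.33), where it is named after its values were seen. ALKBH2 and ALKBH3, the other direct reversal genes listed with MGMT, were not analysed here.

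**Figure D5:**
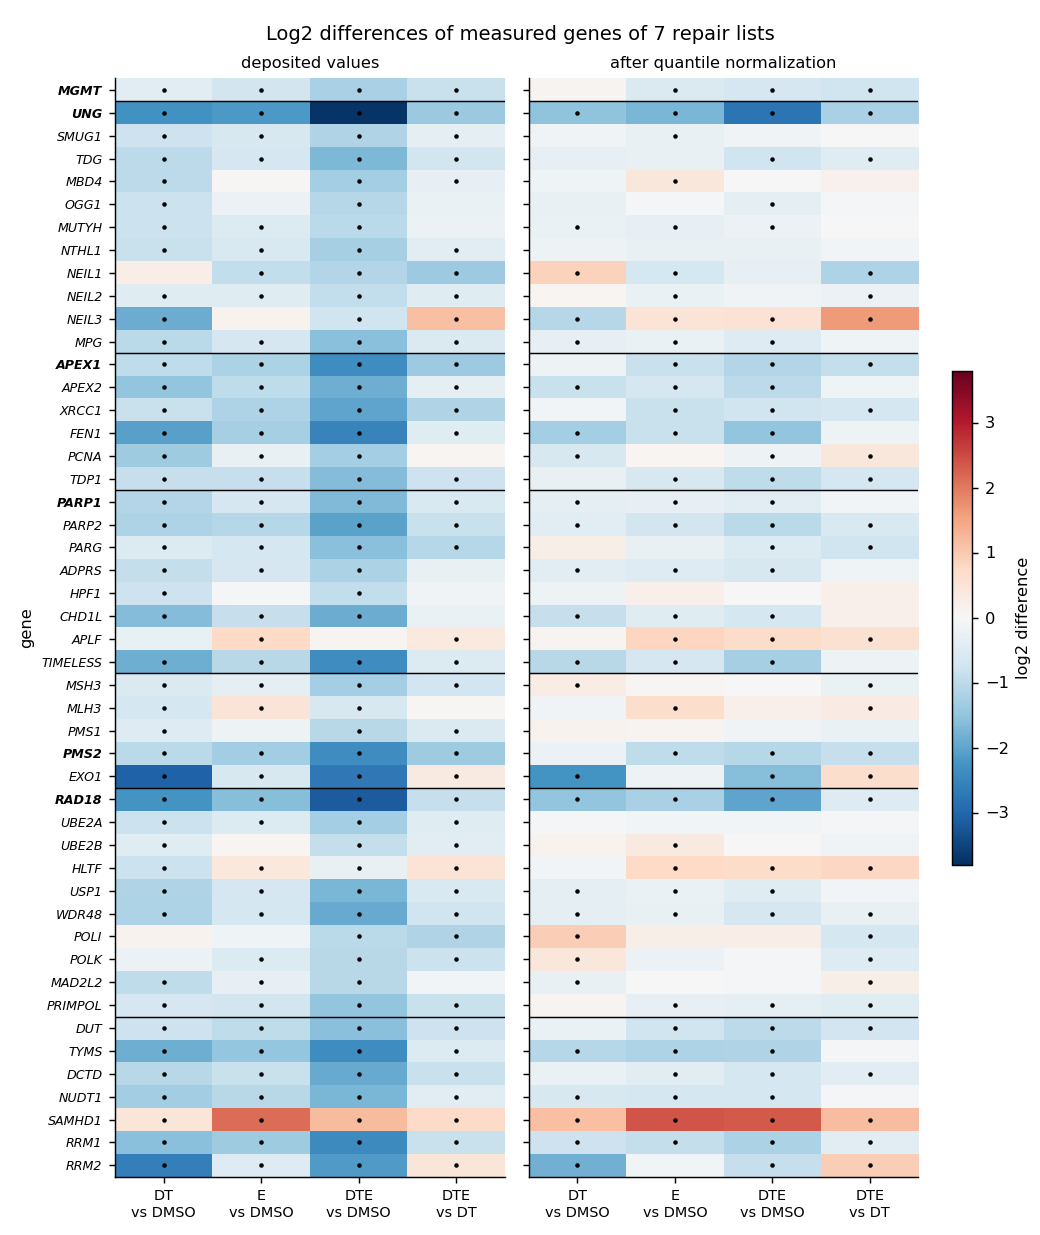
Log2 differences (colour scale from -3.8 to 3.8) of the 48 measured genes of the 7 lists in 4 comparisons, on deposited and quantile normalized values; horizontal lines part the lists, dots mark limma adjusted p under 0.05 and the 6 genes are in bold. UNG and RAD18 are blue in every column of both panels, and SAMHD1 is red in every column.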

How the data were processed

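The authors deposited 1 table of linear probe set intensities for 12 arrays, made with RMA in Transcriptome Analysis Console per the submitters' processing notes. No source used here gives versions, a genome build or the scaling between arrays. Per the labels, the Trizol held an ERCC spike-in mix, for which 0 rows could be identified. The log2 of each deposited intensity was used. Of 29592 rows, 14783 had 1 gene symbol, 0 several and 14809 none. Symbols were checked against the RefSeq gene table (GRCh38.p14), and for the 169 genes with several rows the brightest was used.

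Groups were compared by limma's lmFit and eBayes (version 3.58.1, R 4.3.3) over all 12 arrays and 14599 genes, with Benjamini-Hochberg adjusted p under 0.05, 8 residual and 7.68 prior degrees of freedom. Only 3 arrays per group limit the precision. The 6 genes, the lists and the tests were chosen with earlier results of these data known. Named genes are the 6, up to 3 passing and 2 non-passing genes of largest difference per list in 4 comparisons, 3 genes most like each of the 6, DUSP6, markers, and genes said to be named after their values were seen. Tested on simulated data for DT against DMSO (14599 genes, 200 of them changed, up or down), the fit recovered 42% of log2 shifts of 0.5 and 100% of shifts of 1, 2 or 4. It also called 11 unchanged genes. Far fewer genes were changed than were called in the data, and no overall shift of signal was simulated. The recovery therefore does not bear on the scaling between arrays.

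Alternatives were quantile normalization, subtraction of array medians, leaving out the dimmest 40% of genes, trend and robust variance, the mean of probe sets, only the arrays compared, the replicate number as a block, and leaving out each array. Figures used matplotlib 3.10.9 in Python 3.11.15.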

Additional observations from a re-analysis of the deposited data

Results flagged for a closer look

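The effect of entinostat differed between cells with and without dabrafenib and trametinib for 2 of the 6 genes, by the interaction test in limma. For UNG it was -1.40 with DT and -2.18 without, a difference of 0.78 (adjusted p = 0.0042). For RAD18 it was -0.89 with DT and -1.63 without, a difference of 0.74 (adjusted p = 0.0061). Both passed on the quantile scale and with array medians subtracted.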

How the results depend on the processing

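Most values that moved did so with the scaling between arrays, which removes the overall loss of signal. With quantile normalization, genes higher over all 14599 numbered 2075 for DT, 2651 for E and 3073 for DTE against DMSO (434, 1513 and 639 as deposited), 2859 for DTE against DT (1267), 1531 for DTE against E (94), 3530 for DT against E (1058) and 901 for the interaction (462). Genes lower numbered 2139, 3128 and 3737 for DT, E and DTE against DMSO (9660, 5424 and 10840), 3507 for DTE against DT (5933), 1821 for DTE against E (10602) and 3014 for DT against E (5755). With array medians subtracted, genes higher numbered 2586 for DT, 3301 for DTE, 1945 for DTE against DT, 1787 for DTE against E, 4134 for DT against E and 739 for the interaction, and genes lower 4263 for DT, 6341 for DTE, 4427 for DTE against E and 2977 for DT against E. Without the dimmest 40% of genes, fewer genes being tested, 259 were higher for DT, 339 for DTE and 50 for DTE against E.

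Of the 42 listed genes, quantile normalization gave 5 higher and 18 lower for DT (1 and 37 as deposited), 7 higher for E (4), 4 higher and 24 lower for DTE (1 and 40), 15 lower for DTE against DT (28), 1 higher and 16 lower for DTE against E (0 and 41), and 11 higher and 14 lower for DT against E (2 and 25). Array medians gave 3 higher for DT and 3 for DTE, 10 higher and 14 lower for DT against E, and 11 higher and 4 lower for the interaction (7 and 2). Without the dimmest genes, and likewise with trend and robust variance, 4 were higher for DT against E, and trend and robust variance gave 11 higher for the interaction. Leaving out 1 array gave 1 to 3 higher for DT against E.

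Of the 6 genes, quantile normalization left 3 lower for DT, 1 lower for DT against E and 2 lower for DTE against E. Array medians left 1 lower for DT against E. Without the dimmest genes, which removes MGMT from the fit, and with trend and robust variance 1 was higher for DT against E, and leaving out 1 array gave 0 to 2, with 0 without DT replicate 1 and without E replicate 2. Signs turned for MGMT with DT (0.10 by quantile, 0.049 by medians), for UNG in DT against E (0.21 and 0.20), and, near 0, for the interaction of PMS2 (0.077 and 0.024, and -0.107 to 0.102 with 1 array left out) and of PARP1 (-0.0041, without DT replicate 3, to 0.105). The cause was not tested.

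The replicate number as a block changed no call of the 6 genes. It gave 9775 lower and 442 higher for DT, and 711 lower and 448 higher for the interaction, and no count moved by over 1.5 times. After group means were removed, same-numbered arrays of different groups had correlations across genes of -0.11 to 0.12 (median 0.03), and the numbers were not taken as pairs. Between DTE and E, however, the 3 same-numbered pairs had 0.085 to 0.121 and the 6 others -0.074 to -0.031. Of 12 arrays, 7 correlated best with an array of their own number. The mean of probe sets and the fit of only the arrays compared left every count of the 6 genes within 1.5 times. Each of the 6 has 1 probe set, so the mean of probe sets could not change their values and is no check of them.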
